A study of Rattus norvegicus with 8 samples.

Results

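Hox genes were compared between lumbar spinal motoneurons of 1-day-old and 21-day-old rats. Every probe set of the array whose single platform symbol was Hoxa, Hoxb, Hoxc or Hoxd followed by a number was taken, which gave 24 probe sets of 22 genes, out of 31042 probe sets and 14217 genes with a single symbol on the array. The GRCr8 gene table of RefSeq lists 39 Hox genes of the 4 clusters, so 22 of them were covered by this rule. For the Hoxa11 probe set the platform symbol was kept, since its gene identifier had no match in the GRCr8 table used here. The animals were Wistar albino rats, and the labels name no genotype and no treatment of the animals at either age. Motoneurons had been cut by laser from thin, cresyl violet-stained sections of the lumbar cord at P1, during myelination, and at P21, after it. Each of 4 litters was divided between the ages, each array held RNA pooled from 4 rats and amplified in 2 rounds, and there were 4 Affymetrix RAE230 2.0 arrays per age. The values are the deposited intensities of the probe sets, and the level of 1 probe set is not set against that of another: where genes are compared, it is their changes between the ages.

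Hox genes encode homeodomain transcription factors and lie in 4 clusters, named a to d, that arose by duplication of 1 ancestral cluster. Genes of different clusters that share a number are paralogues, and genes with low numbers are expressed from more anterior levels of the embryonic neural tube than genes with high numbers. In the embryonic spinal cord they set which motor columns and motor pools form at each level, together with TALE homeodomain cofactors of the Pbx and Meis families.

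Over the 19155 probe sets that passed the level filter described below, the correlation between arrays was 0.958 to 0.986 within an age and 0.821 to 0.868 between ages. Of 8 motoneuron markers, 1 rose, 1 fell and 6 did not pass the test, and their summed intensity was 45940 to 49645 at P1 and 47250 to 53699 at P21. Of 9 oligodendrocyte and myelin markers, 7 rose and none fell, and their summed intensity was 6791 to 8669 at P1 and 32931 to 35481 at P21. Markers of other cells were counted over kept genes. Of these, 6 of 8 for astrocytes, 4 of 6 for endothelium and pericytes and 4 of 5 for fibroblasts and meninges rose. So did 3 of 5 for microglia, 3 of 4 for oligodendrocyte precursors and 2 of 4 for erythrocytes. By contrast, 4 of 6 for spinal interneurons and 3 of 6 for dividing cells fell. Against their lists, Slc1a3 of astrocytes fell (log2 change -1.35 ± 0.18, SE) and Slc32a1 of interneurons rose (0.47 ± 0.16). Markers that define these cells were mixed: Olig1, Sox10 and Pdgfra of precursors, Csf1r, Aif1 and C1qb of microglia and Gad1 and Slc32a1 of inhibitory interneurons were above the level filter on all 8 arrays, and Olig2, Cx3cr1, Itgam, Gad2 and Slc6a5 were below it on all 8. The summed intensity of the astrocyte markers was 13910 to 15405 at P1 and 21391 to 24971 at P21, that of the fibroblast and meninges markers 5499 to 9246 and 10851 to 25454, and that of the interneuron markers 13221 to 13514 and 7095 to 9065. The part of these other cells in the Hox changes was not tested.

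Hox genes changed in both directions between P1 and P21. The lumbar genes Hoxa11, Hoxd10 and Hoxa10 fell, as did Hoxb3, and Hoxd8, Hoxc9, Hoxc5 and Hoxa7 rose. Hoxd3 was called higher by 1 of its kept probe sets only, and its direction is uncertain. Of the 24 probe sets, 20, for 19 genes, were kept, meaning above the 40th percentile of their array on at least 4 of the 8 arrays. Among these 20, 9 were called (45%), against 38.3% of the 19155 probe sets tested; a call is a Benjamini-Hochberg adjusted p below 0.05 in limma over all 19155. Of the 20, 5 were called higher at P21 (25%) against 20.8% of all, and 4 were called lower (20%) against 17.4%. The 4 intensities of one age all lay on one side of the other 4 for 10 of the 20 (50%), against 38.0% of all probe sets. These shares lie near those of the whole array, so the count of calls is no result about Hox genes; what the data show is which genes moved which way. Counted by gene, with the kept probe set of highest mean standing for the gene, 9 of 19 Hox genes were called, against 39.4% of 10961 genes (22.0% higher and 17.4% lower), and the median log2 change was 0.01 over the Hox genes and 0.05 over all genes. Because each array holds RNA of many cells, fewer cells expressing a gene and less of its RNA per cell cannot be told apart.

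**Figure D1:**
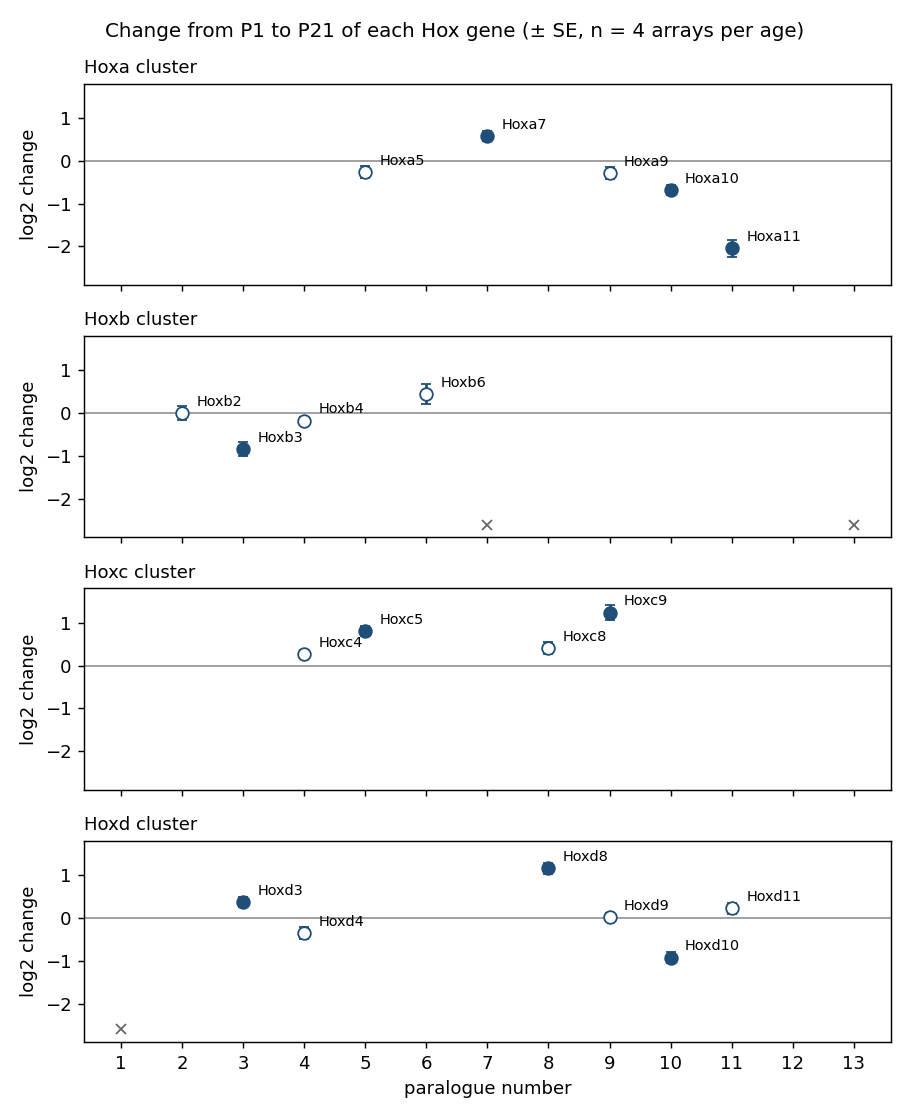
Log2 change of intensity from P1 to P21 (vertical axis, ± SE, 4 arrays per age) of each Hox gene against its paralogue number (horizontal axis), with 1 panel per cluster. Filled points passed the test, open points did not, and crosses mark Hoxb7, Hoxb13 and Hoxd1, which were not kept; the points at paralogue 10 lie below 0 in both clusters that have them, and all 4 points of the Hoxc cluster lie above 0.

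Paralogues 10 and 11 are the lumbar members; Hoxa10 and Hoxd10 specify lumbar lateral motor column identity in the embryo. Of the 4 genes of these numbers on the array, 3 fell and 1 did not pass the test. The Hoxa11 intensities were 1835, 1568, 1918 and 2251 on the P1 arrays and 464, 336, 672 and 364 on the P21 arrays, in the order of replicates 1 to 4. The lowest P1 array was above the highest P21 array, and the mean fell from 1893 ± 282 (SD, n = 4) to 459 ± 152 (SD, n = 4). Its log2 change was -2.05 ± 0.21 (SE), a 4.13-fold lower value at P21 with a limma adjusted p of 5.82e-05; this and the other folds are on the scale of log2(intensity + 16). No other kept Hox gene fell further.

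Hoxd10 was at 6699, 5997, 6863 and 6865 at P1 and at 3729, 2725, 4294 and 3323 at P21. Again the ages did not overlap, and the mean went from 6606 ± 414 to 3518 ± 661 (SD, n = 4 each), a log2 change of -0.92 ± 0.14 and 1.90-fold lower (limma adjusted p = 0.000622). Hoxa10, its paralogue, was at 3855, 3832, 3809 and 3856 at P1 and at 2327, 1978, 2857 and 2490.2 at P21. The P1 arrays were close to each other (3838 ± 22.1, SD, n = 4) and the P21 arrays spread more widely below them (2413 ± 365, SD, n = 4), with a log2 change of -0.68 ± 0.12, 1.60-fold lower (limma adjusted p = 0.00134). The changes of Hoxa10 and Hoxd10 differed by 0.25 ± 0.08 on the log2 scale, which did not pass the test (exact two-sided permutation p = 0.0571, adjusted p = 0.0698).

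Hoxd11, the paralogue of Hoxa11, did not pass the test. Its intensities were 328, 336, 259.9 and 284 at P1 and 344, 393, 284 and 406 at P21, so the ages overlapped (302 ± 36.1 and 357 ± 55.2, SD, n = 4). The log2 change was 0.22 ± 0.13 (limma adjusted p = 0.218). The change of Hoxa11 minus that of Hoxd11 was -2.27 ± 0.37, the furthest from 0 among the 11 paralogue pairs compared (exact two-sided permutation p = 0.0286, adjusted p = 0.0393). Hoxa11-as, an antisense transcript of the Hoxa11 locus with a probe set of its own, also fell, from 695, 653, 936 and 1157 to 427, 339.8, 632 and 246, with a log2 change of -1.08 ± 0.28 (limma adjusted p = 0.0123). Its highest P21 array was just below its lowest P1 array. Whether either probe set takes up RNA of the opposite strand was not tested.

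Paralogues 7 to 9 are expressed over much of the thoracic cord in the embryo, and Hoxc9 there keeps limb-level motoneuron programmes off. Among the 6 kept genes of this group, 3 rose, none fell and 3 did not pass the test, with a median log2 change of 0.49 (0.44 with Hoxc9, which was dim at P1, at the lowest rise its values allow); at paralogues 10 and 11 the median was -0.80 over 4 genes, and at paralogues 2 to 6 it was 0.01 over 9, of which 2 rose, 1 fell and 6 did not pass. These 3 ranges of numbers were drawn after the changes had been seen and are a description only. Across the 19 genes, Pearson's r of the change with the paralogue number was -0.18 (Spearman's rho -0.13). Over the 15 genes outside paralogues 10 and 11, r was 0.45 (rho 0.43). This second set leaves out a range drawn after the changes had been seen, in which 3 of 4 genes fell. Both values of r take Hoxc9 at its fitted change, and r was not computed with its lowest rise. The r of 0.45 is therefore no evidence of a trend with the number. Genes of 1 cluster and arrays are shared between these points.

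Hoxd8 had intensities of 1448, 1598, 1932 and 2062 at P1 and of 3643, 3742, 4403 and 3945 at P21. The ages were far apart, with means of 1759.9 ± 285 and 3933 ± 338 (SD, n = 4 each). The log2 change was 1.16 ± 0.13, 2.24-fold higher at P21 (limma adjusted p = 0.000101). Hoxc8, its paralogue, which marks brachial motor pools in the embryo, was at 329, 292, 225 and 213 at P1 and at 336, 353, 314 and 412 at P21. Replicate 1 of P1 overlapped the P21 arrays, and Hoxc8 did not pass the test (0.41 ± 0.15, limma adjusted p = 0.0543).

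Hoxc9 was at 110.0, 189, 118 and 158 at P1, below the 40th percentile on each of these arrays, and at 294, 361, 336 and 433 at P21, above it on each. Its log2 change was 1.23 ± 0.17 (limma adjusted p = 0.000447), and measured against the level of the filter at P1 it was at least 1.38-fold higher at P21. Hoxa9 and Hoxd9, the other paralogues 9 on the array, were above the filter on all 8 arrays. Hoxa9 was at 2134 ± 255 and 1750.4 ± 276 (SD, n = 4; log2 change -0.29 ± 0.14, limma adjusted p = 0.123). Hoxd9 was at 3242, 2915, 3100.0 and 3420.4 at P1 and at 3182, 3031, 3595 and 3007 at P21. These overlapped fully, with a log2 change of 0.01 ± 0.10 (limma adjusted p = 0.919).

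Hoxa7, the only kept paralogue 7, was at 683, 699, 681 and 692 at P1 and at 1011, 846, 1168 and 1149 at P21. The P1 arrays were within a narrow range (689 ± 8.32, SD, n = 4) and all P21 arrays lay above it (1044 ± 149, SD, n = 4). The log2 change was 0.58 ± 0.11, or 1.49-fold (limma adjusted p = 0.00305). Hoxb7 was below the level filter on all 8 arrays, at 55.4, 107, 72.6 and 74.98 at P1 and 29.0, 50.6, 40.6 and 28.7 at P21. Its P1 values lay above its P21 values without overlap, but at intensities too low for the main test. Without the filter, over all 31042 probe sets, Hoxb7 was called lower (log2 change -0.80 ± 0.19, limma adjusted p = 0.0171), and 4 Hox probe sets were then called higher and 5 lower.

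**Figure D2:**
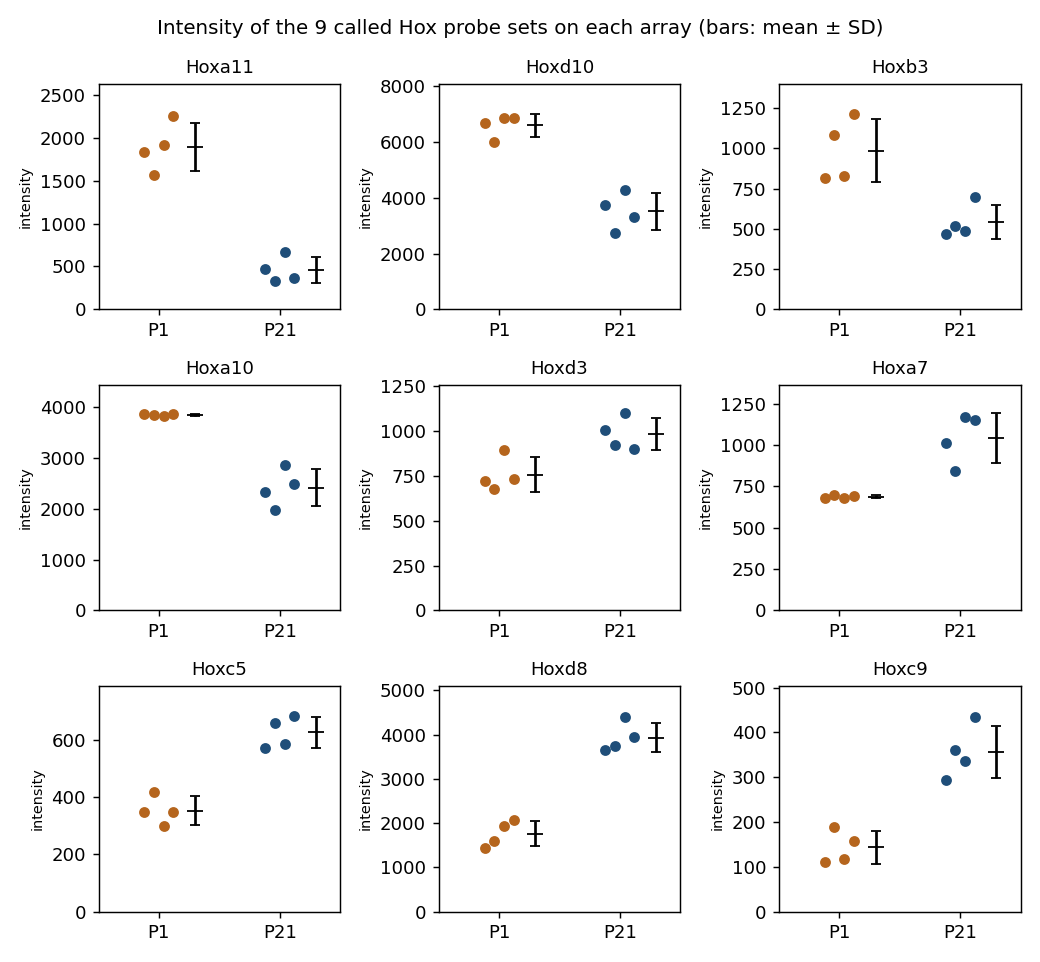
Intensity (vertical axis, linear, from 0) on each array of the 9 Hox probe sets that passed the test, in the order of their change, with P1 and P21 on the horizontal axis; points are arrays in the order of replicates 1 to 4 and bars the mean ± SD of 4. In each of the 9 panels the P1 and P21 points do not overlap, and the gap is narrowest for Hoxd3, between 895 at P1 and 902 at P21.

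Paralogues 2 to 6 belong to the hindbrain, cervical and brachial levels of the embryo. Hoxb3, an anterior member of its cluster, was at 817, 1080.0, 827 and 1213 at P1 and at 469, 518, 484 and 695 at P21. All P21 arrays were below all P1 arrays (984 ± 195 and 541 ± 104, SD, n = 4), and the log2 change was -0.84 ± 0.17, 1.79-fold lower (limma adjusted p = 0.00334). Hoxc5, which acts with Hoxa5 in the phrenic motor column of the cervical cord, rose from 349, 419, 299 and 347 to 573, 661, 586 and 685. The ages did not overlap (353 ± 49.6 and 626 ± 55.1, SD, n = 4), and the log2 change was 0.80 ± 0.12, or 1.75-fold (limma adjusted p = 0.000551). Hoxa5 did not pass the test, at 1675 ± 185 and 1406 ± 241 (SD, n = 4; log2 change -0.26 ± 0.14, limma adjusted p = 0.186).

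Hoxd3 was measured by a pair of kept probe sets that pointed in opposite directions. The one of higher mean, which stands for the gene, was at 723, 674, 895 and 731 at P1 and at 1006, 924, 1100.4 and 902 at P21. It rose by 0.38 ± 0.11 on the log2 scale (limma adjusted p = 0.0267), but this call was lost in 8 of 15 alternative settings, namely without the level filter (adjusted p = 0.0564), with arrays centred on their medians (0.280), with quantile normalization (0.0818) and leaving out P1 replicate 1, 2 or 4 (0.0642, 0.0626 and 0.0691) or P21 replicate 1 or 3 (0.0610 and 0.0698). The other was at 315, 336, 327 and 397 at P1 and at 225, 244, 364 and 330.0 at P21, which overlapped (log2 change -0.25 ± 0.16, limma adjusted p = 0.243). The changes of the pair differed by 0.63 ± 0.19 (exact two-sided permutation p = 0.0571). The direction of Hoxd3 is therefore uncertain.

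The 3 kept paralogues 4 did not pass the test. Hoxc4, by its kept probe set, was at 287, 301, 264 and 305 at P1 and at 342, 391, 318 and 351 at P21. Its ages did not overlap, yet the log2 change of 0.26 ± 0.10 had a limma adjusted p of 0.0547. With the replicate number as a block it passed (adjusted p = 0.0295), the only Hox probe set whose call the block changed. Hoxd4 (-0.35 ± 0.13, adjusted p = 0.0645) and Hoxb4 (-0.17 ± 0.09, adjusted p = 0.169) overlapped between ages. Hoxb2 (0.01 ± 0.17) and Hoxb6 (0.45 ± 0.24) did not pass either, and the intensities of Hoxb6 ranged from 533 to 1106 at P1 and from 739.7 to 1393 at P21.

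Hoxd1, Hoxb13 and the other Hoxc4 probe set were, like Hoxb7, below the level filter on every array and took no part in the main test. Without the filter these 3 did not pass (limma adjusted p = 0.0610 for Hoxd1, 0.631 for Hoxb13 and 0.182 for Hoxc4). Hoxd1 was at 32.8, 28.8, 28.7 and 12.8 at P1 and at 44.6, 48.4, 39.1 and 38.8 at P21, with no overlap between ages. Hoxb13, the most posterior member on the array, stayed at or under 24.5 at P1 and ranged from -3.15 to 158 at P21. These values say that the genes gave no signal above the filter on these arrays, not that they are silent.

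By cluster, the Hoxc genes stood on one side: of 4 kept, 2 rose and none fell, and the log2 changes ran from 0.26 to 1.23 with a median of 0.61. With Hoxc9 at its lower bound of 0.46, since its P1 level is known only as below the filter, the median was 0.44 and the highest change 0.80. Each of the 4 kept a positive change in all 14 alternative settings that kept it. These genes were dim, with P1 means of 289 for Hoxc4, 353 for Hoxc5, 265 for Hoxc8 and 144 for Hoxc9. The filter level was 221 to 282 on the P1 arrays, and the stricter alternative filter kept none of these genes. With arrays centred on their medians the changes were 0.12 for Hoxc4, 0.67 for Hoxc5, 0.27 for Hoxc8 and 1.10 for Hoxc9. The part of dimness and scaling in their shared sign was not tested. In the Hoxa cluster 1 of 5 rose and 2 fell (median -0.29, range -2.05 to 0.58), in the Hoxb cluster none of 4 rose and 1 fell (median -0.08, range -0.84 to 0.45), and in the Hoxd cluster 2 of 6 rose and 1 fell (median 0.12, range -0.92 to 1.16). The sign of the Hoxd median depended on the scaling, since it was -0.018 with arrays centred on their medians.

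Whether paralogues changed alike was tested on the difference of their log2 intensities within each array. A factor common to all probe sets of an array largely cancels in this difference, but a shift that depends on intensity does not. The pairs were not tested again after another normalization. Of 11 pairs that share a number, 8 changed by different amounts (exact two-sided permutation test over the 70 ways to assign 4 of 8 arrays, p = 0.0286 for each, the smallest it can give, adjusted p = 0.0393 over the 11). The log2 change of Hoxa5 minus that of Hoxc5 was -1.06 ± 0.20 (SE), and that of Hoxa9 minus that of Hoxc9 was -1.52 ± 0.18. In the same sense the difference was 1.22 ± 0.24 for Hoxc9 minus Hoxd9, -0.75 ± 0.28 for Hoxc8 minus Hoxd8 and -1.22 ± 0.27 for Hoxb3 minus Hoxd3. Hoxc4 stood above both other paralogues 4, with -0.43 ± 0.09 for Hoxb4 minus Hoxc4 and 0.62 ± 0.13 for Hoxc4 minus Hoxd4. With the other Hoxd3 probe set, Hoxb3 minus Hoxd3 was -0.59 ± 0.18 and still passed (adjusted p = 0.0393). With Hoxc9 at the filter level on the P1 arrays, which gives its smallest possible rise, Hoxa9 minus Hoxc9 was -0.75 ± 0.20 and passed (adjusted p = 0.0449), whereas Hoxc9 minus Hoxd9 was 0.45 ± 0.18 and did not (adjusted p = 0.0943), which left 7 of 11 pairs. The 8 pairs came from paralogues 3, 4, 5, 8, 9 and 11. The other 3 pairs did not pass: Hoxa10 with Hoxd10 (adjusted p = 0.0698), Hoxa9 with Hoxd9 (-0.30 ± 0.12, adjusted p = 0.0943) and Hoxb4 with Hoxd4 (0.18 ± 0.12, exact p = 0.2). Pairs share genes and are not independent. Each passing pair sits at the smallest p, so it passes the adjustment only because many pairs reach that p together. How often gene pairs at large differ was not computed, so the count of 8 is no result about paralogues. With the replicate numbers as blocks the exact sign-flip test cannot go below p = 0.125, so 0 of the 11 pass it.

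Neighbours in a cluster differed as well. Of 15 pairs of adjacent kept genes, compared after the changes had been seen, 14 differed (exact two-sided permutation p = 0.0286, adjusted p = 0.0306 over the 15), and the exception was Hoxb4 with Hoxb6 (-0.62 ± 0.24, adjusted p = 0.0571). Of these 14, a pair was lost under each of the following choices: Hoxd3 minus Hoxd4, at 0.73 ± 0.21, was 0.10 ± 0.17 with the other Hoxd3 probe set (exact p = 0.514), and Hoxc8 minus Hoxc9, at -0.82 ± 0.24, was -0.052 ± 0.10 with Hoxc9 at the filter level at P1 (exact p = 0.6). In the Hoxd cluster the change stepped down along 3 neighbours, with Hoxd8 above Hoxd9 by 1.15 ± 0.11 and Hoxd9 above Hoxd10 by 0.94 ± 0.10, and then up, with Hoxd10 minus Hoxd11 at -1.15 ± 0.27. In the Hoxa cluster it stepped down from Hoxa7 to Hoxa9 by 0.87 ± 0.09, to Hoxa10 by 0.39 ± 0.09 and to Hoxa11 by 1.37 ± 0.18. Hoxd4, on the other side of Hoxd8, differed from it by -1.52 ± 0.17. As for the paralogues, the share of gene pairs at large that differ was not computed, so the count of 14 is no result about neighbours.

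The promoters of Hoxd10, Hoxd9 and Hoxd8 are shown because these neighbours differed in their change, and those of Hoxa7 and Hoxa11 because they are the Hoxa genes that rose and that fell furthest. Each is the 250 bases before the start of the RefSeq gene in GRCr8, printed 5′ to 3′ on the strand of the gene, with every CG dinucleotide in capitals.
Hoxd10, chr3:80001697-80001946, + strand: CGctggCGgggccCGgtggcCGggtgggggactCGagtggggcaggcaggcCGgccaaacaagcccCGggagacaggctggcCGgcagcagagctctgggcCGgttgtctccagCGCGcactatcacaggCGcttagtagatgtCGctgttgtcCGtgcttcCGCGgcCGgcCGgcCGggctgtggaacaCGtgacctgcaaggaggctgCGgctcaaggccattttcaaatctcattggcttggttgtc
Hoxd9, chr3:80007756-80008005, + strand: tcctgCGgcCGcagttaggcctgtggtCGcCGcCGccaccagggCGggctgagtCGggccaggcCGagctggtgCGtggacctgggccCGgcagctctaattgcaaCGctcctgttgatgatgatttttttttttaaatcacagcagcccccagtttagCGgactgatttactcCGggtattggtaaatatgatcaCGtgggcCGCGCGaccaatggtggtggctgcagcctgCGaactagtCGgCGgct
Hoxd8, chr3:80014973-80015222, + strand: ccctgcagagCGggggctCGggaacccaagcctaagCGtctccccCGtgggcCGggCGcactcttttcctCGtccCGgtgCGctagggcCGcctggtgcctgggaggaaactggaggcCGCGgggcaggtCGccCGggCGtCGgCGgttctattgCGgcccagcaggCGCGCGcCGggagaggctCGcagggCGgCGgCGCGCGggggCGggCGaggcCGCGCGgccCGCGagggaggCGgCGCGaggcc
Hoxa7, chr4:82648242-82648491, - strand: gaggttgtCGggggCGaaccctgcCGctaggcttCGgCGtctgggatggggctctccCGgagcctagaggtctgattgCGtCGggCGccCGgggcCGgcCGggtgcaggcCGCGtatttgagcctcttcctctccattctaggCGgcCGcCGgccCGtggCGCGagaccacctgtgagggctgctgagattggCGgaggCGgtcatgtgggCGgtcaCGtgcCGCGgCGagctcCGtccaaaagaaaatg
Hoxa11, chr4:82676802-82677051, - strand: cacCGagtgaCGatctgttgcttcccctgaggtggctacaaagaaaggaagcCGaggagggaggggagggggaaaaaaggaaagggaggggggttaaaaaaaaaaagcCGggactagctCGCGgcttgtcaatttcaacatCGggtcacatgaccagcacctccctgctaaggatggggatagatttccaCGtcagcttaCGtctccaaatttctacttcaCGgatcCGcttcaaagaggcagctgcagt
The Hoxd promoters follow each other on chromosome 3 in the order Hoxd10, Hoxd9, Hoxd8. The Hoxd8 stretch, whose gene rose, holds 38 CG dinucleotides, the most of the 13 promoters found for 12 of the 22 Hox genes. The Hoxd9 stretch holds 20, the Hoxd10 stretch 21, the Hoxa7 stretch 28 and the Hoxa11 stretch 11, and between these last, Hoxa9 has 18 and the alternative promoters of Hoxa10 have 21 and 14. Over all 33469 promoters of the table the median was 5 and the upper quartile 15, and 8 of the 13 Hox promoters were above that quartile (range 3 to 38). The promoters printed were picked by the changes of their genes, and a relation of the CG count to the change was not tested.

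Both strands of the 13 promoters were searched for 3 motifs. The letters TGATNNAT, a Pbx-Hox composite site, were in 1 of 13, that of Hoxd11, and in 7.96% of all promoters. The Meis letters TGACAG were in 0 of 13 and in 15.8% of all. The E-box CACGTG, chosen after the sequences had been seen, was in 7 of 13 and in 5.59% of all. Those 7 belong to Hoxa7, Hoxa9, Hoxd1, Hoxd3, Hoxd9, Hoxd10 and Hoxd11, which include genes that rose, fell and did not pass the test. A match of letters is a description of the sequence and shows no binding.

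Within an age, some arrays were often the highest or the lowest for Hox genes. P1 replicate 4 was the highest P1 array for 12 of the 20 kept probe sets and P1 replicate 3 the lowest for 8. At P21, replicate 3 was the highest for 10 and replicate 2 the lowest for 9. P21 replicate 3 also had the highest summed intensity of motoneuron markers (53699) and of myelin markers (35481). The part of such array differences in single values was not tested beyond leaving out each array, under which 8 of the 9 calls held and only that of Hoxd3 did not.

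The TALE and FoxP cofactors with which Hox proteins bind DNA fell or did not pass the test. Of 15 listed genes 11 were kept, none of which rose, 5 fell and 6 did not pass (median log2 change -0.04), beside 22.0% of all genes called higher and 17.4% lower. Meis2, a TALE cofactor, was at 3441, 3382, 3321 and 3185 at P1 and at 684, 696, 601 and 434 at P21, with a log2 change of -2.46 ± 0.14 (limma adjusted p = 2.66e-06). Its relative Meis1 fell from 3348 ± 325 to 892 ± 171 (SD, n = 4; -1.91 ± 0.15, limma adjusted p = 1.43e-05). Meis3 did not pass (-0.04 ± 0.11). Foxp1, the FoxP partner of Hox proteins in limb motor columns, fell by 1.22 ± 0.11 on the log2 scale (limma adjusted p = 3.58e-05), as did its 3 other kept probe sets, and Pbx3 fell by 0.95 ± 0.10 (limma adjusted p = 8.71e-05). Pknox1 was the fifth that fell (-0.80 ± 0.21, limma adjusted p = 0.0127).

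Known regulators of Hox expression (retinoid signalling, Cdx, Gdf11, Polycomb, Trithorax, CTCF and cohesin) were called about as often as genes at large. Of 32 kept genes 7 rose, 7 fell and 18 did not pass the test, with a median of -0.03, beside 22.0% of all genes called higher and 17.4% lower. Cbx7, a Polycomb subunit that reads histone H3 methylation, was at 134, 139.6, 131 and 136 at P1, below the filter on each array, and at 775, 715, 842 and 720.5 at P21. It was at least 2.90-fold higher at P21 (log2 change 2.36 ± 0.09, limma adjusted p = 2.10e-07). Ezh1, a Polycomb histone methyltransferase, rose from 1172 ± 92.7 to 3088 ± 261 (SD, n = 4; 1.38 ± 0.10, limma adjusted p = 7.44e-06), and its other kept probe set rose by 0.39 (adjusted p = 0.0461). Aldh1a2, the retinoic acid-synthesizing enzyme of limb-level motoneurons and also of meninges, fell from 6243 ± 619 to 528 ± 218 (SD, n = 4; -3.65 ± 0.33, limma adjusted p = 2.88e-05), and P21 replicate 4 was below the filter. Rarb, a retinoic acid receptor that is itself induced by retinoic acid, fell by 1.45 ± 0.15 on the log2 scale (limma adjusted p = 5.81e-05). Related Polycomb subunits moved in opposite directions, named here after their values were seen: Phc2 rose by 0.75 and Phc1 fell by 1.14, and Cbx2 fell by 0.61 whereas Cbx7 rose as given.

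Genes listed for motor columns and pools fell more often than they rose. Whether each of them depends on Hox proteins was not tested, and Isl1 is also among the motoneuron markers above. Of 21 kept genes 14 fell, 5 rose and 2 did not pass the test (median -0.55), beside 17.4% of all genes called lower, 22.0% called higher and a median of 0.05. The largest fitted falls were those of Cdh8, an adhesion molecule of motor pools, which was at 487 ± 87.4 at P1 and below the filter on all P21 arrays, at least 1.71-fold lower (limma adjusted p = 3.16e-05), a bound that does not fix its rank, and of Nkx6-1, a motoneuron homeodomain factor, from 1849 ± 162 to 451 ± 49.1 (SD, n = 4; -1.998 ± 0.11, limma adjusted p = 1.81e-06). The furthest rises were those of Mecom, a zinc finger factor (1.98 ± 0.25, limma adjusted p = 0.000203), whose other kept probe set was at 0.03 and did not pass, and of Nkx6-2 (1.37 ± 0.12, limma adjusted p = 1.91e-05), which oligodendrocytes express too, whose markers rose as given above.

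**Figure D3:**
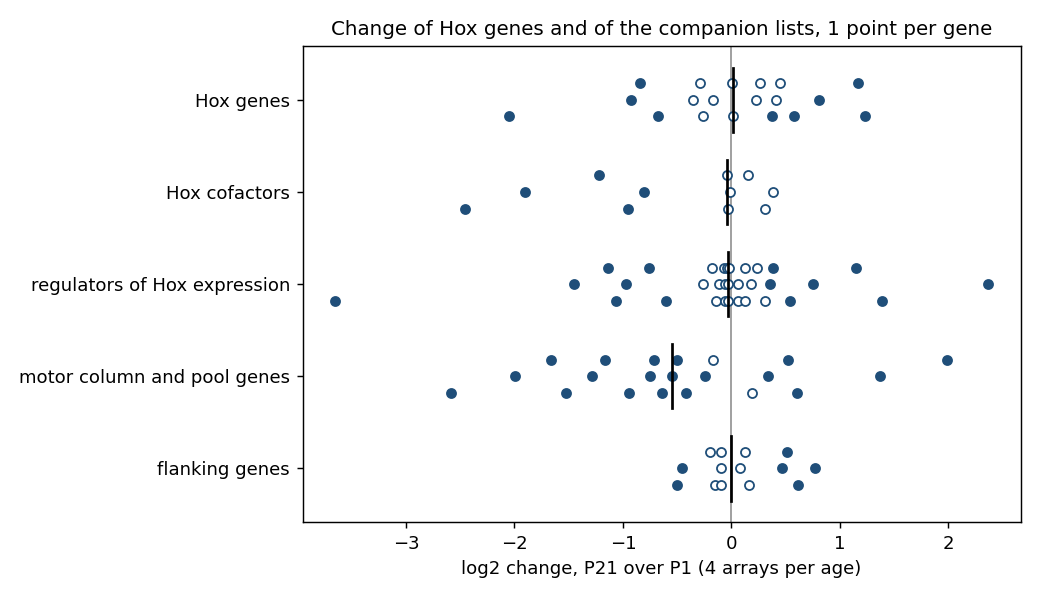
Log2 change from P1 to P21 (horizontal axis, 4 arrays per age) of each kept gene of the Hox family and of 4 other gene lists (vertical axis), with filled points for genes that passed the test and a bar at each list's median. Hox genes spread from -2.05 to 1.23 (the fitted value of Hoxc9, which was dim at P1) about a median of 0.01, and the motor column and pool genes have the lowest median of the 5 lists shown, -0.55.

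Of 14 kept genes that flank the clusters, 4 rose, 2 fell and 8 did not pass the test, with a median log2 change of -0.01 and a range of -0.50 to 0.77, beside -2.05 to 1.23 for the Hox genes and beside 22.0% of all genes called higher and 17.4% lower. The nearest called gene beside Hoxa was Skap2, an adaptor protein, which fell by 0.45 ± 0.09 (limma adjusted p = 0.00380). Beside Hoxb it was Nfe2l1 (0.51 ± 0.10, adjusted p = 0.00231) and beside Hoxc Calcoco1 (0.46 ± 0.15, adjusted p = 0.0339). Beside Hoxd it was Nfe2l2 (0.77 ± 0.18, adjusted p = 0.00756). Nfe2l1 and Nfe2l2 are transcription factors of stress responses. Nfe2l1, Calcoco1 and Nfe2l2 rose. Hnrnpa3 lies nearer to Hoxd, 2 genes away against 3 for Nfe2l2. The probe set standing for Hnrnpa3 did not pass (-0.19, limma adjusted p = 0.0982). Its other kept probe sets at -0.49 and -0.52 were called lower (limma adjusted p = 0.00137 and 0.00176). The one at -0.27 did not pass (limma adjusted p = 0.0895).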

How the data were processed

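Biotin-labelled RNA of lumbar motoneurons was measured on 8 Affymetrix RAE230 2.0 arrays, 4 per age. The values are the authors' deposited intensity per probe set on a linear scale, 66 to 250 of them below 0 on each array; the summary and scaling behind them are not given in the sources used here. Names came from the platform annotation and probe sequences were not used, so uptake of RNA from related Hox genes was not tested. The number of arrays limits the precision.

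Negative values were raised to 0. The log2(intensity + 16) values were then fitted with limma 3.58.1 (R 4.3.3; lmFit and eBayes) over all 8 arrays with age as the only term, for probe sets above the 40th percentile of their array on at least 4 arrays, with Benjamini-Hochberg adjustment over all 19155. With 1 array left out, 3 arrays above the percentile were asked for, so that genes bright at 1 age remained. A fold is given as "at least" where all arrays of 1 age lie below that percentile. Differences between genes were tested by exact permutation. The scripts were tested on simulated data.

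Same-numbered arrays of the ages deviated together over the kept probe sets (correlations of 0.514, 0.321, 0.558 and 0.15 for the 4 numbers). However, P1 replicate 4 was closer to P21 replicate 3 (0.366) than to P21 replicate 4, and P1 replicate 1 was at 0.262 with P21 replicate 2. The labels do not say that the number marks the litter, so whether the numbers pair the arrays is uncertain. The fit and exact tests described here use no pairing, and a fit with the number as a block is an alternative. The others were no filter, the 60th percentile, pseudocounts of 1 and 64, centring on medians, quantile normalization, other rules for several probe sets and leaving out each array. Added after the changes were seen were the neighbour pairs, the ranges of paralogue numbers, the other Hoxd3 probe set and Hoxc9 at the filter level at P1.

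The members, gene lists and tests were chosen with earlier results of these data known. Named were all called Hox probe sets and all whose ages did not overlap, the 2 called genes with the largest rise and the 2 with the largest fall of each other list, and the called flanking gene nearest to each cluster. Foxp1, Pbx3, Pknox1, Meis3, Phc1, Phc2 and Cbx2 fell outside this rule and were chosen after their values were seen. Promoter sequences came from RefSeq (GRCr8).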

Additional observations from a re-analysis of the deposited data

How the results depend on the processing

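Of the 9 Hox calls, 8 held in each of the 15 alternative settings that kept the probe set, and Hoxd3 was lost in 8 of them; no call reversed. Hoxb2 and Hoxd9, which were not called, changed sign in 5 and 3 settings. With the filter at the 60th percentile 12 Hox probe sets were left, of which 3 were higher, and none of the Hoxc cluster was left. In that setting 3 motor column genes and 2 flanking genes were called higher. The medians were then 0.19 for Hoxd and -0.26, 1.16, -0.14 and -2.05 for paralogues 5, 8, 9 and 11, because fewer genes were tested. With arrays centred on their medians the median of all kept probe sets went from 0.07 to -0.07 and the share of calls that were higher from 54.4% to 38.6%, the medians were -0.018 for Hoxd and -0.37, -0.31, 0.13, 0.65 and -1.05 for paralogues 3, 4, 5, 8 and 11, and 4 regulators were called higher. Quantile normalization gave -0.30 and -1.01 for paralogues 4 and 11. Averaging the probe sets of a gene gave 0.039 for Hoxd and -0.39 for paralogue 3, and counting each probe set alone gave 0.014 for Hoxd. With 1 array left out, 4 to 5 Hox probe sets were higher and 4 to 5 lower, 0 to 1 cofactors were higher (1 without P1 replicate 2 or P21 replicate 4) and 4 to 7 regulators (4 without P1 replicate 3). Hoxa9 gained a call in 2 settings (limma adjusted p = 0.0491 with centring, and 0.0486 at the lowest). Hoxd4 gained a call in 3 (centring, 0.0149, quantile, 0.0125, and without P1 replicate 3, 0.0211). Calls were also gained by Hoxb4 (quantile, 0.0285), Hoxc8 (without P1 replicate 1, 0.0226), Hoxb6 (without P1 replicate 2, 0.0456) and Hoxc4 (without P21 replicate 3, 0.0460). With centring, and also with quantile normalization, 4 Hox probe sets were called higher and 6 lower. Hoxc9 at its bound brought the Hoxc median to 0.44, and 7 of 11 paralogue pairs and 13 of 15 neighbours were then called; with the other Hoxd3 probe set 8 and 13 were. Of paralogue pairs, 0 of the 3 with both genes above the 60th percentile were called, and 7 of 7 such neighbours. Hoxb3 minus Hoxd3 was at the smallest exact permutation p, 0.0286, but 1 such pair among 3 cannot pass the adjustment. In the fit with the replicate block the 5 higher and 4 lower Hox calls stayed and only Hoxc4 was gained (adjusted p = 0.0295); with exact sign flips in that block 0 of 11 paralogue pairs and 0 of 15 neighbours passed, since the 4 blocks allow no p below 0.125. Dimness limits Hoxc9 at P1 and the 4 probe sets below the filter. In 40 groups of 4 arrays, 0 held an outlying array by Dixon's test.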
